A study of Danio rerio with 4 samples.

Results

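The branched-chain amino acid breakdown genes described here are the 40 genes, of 18105 in the deposited table, that carry its KEGG annotation for valine, leucine and isoleucine degradation, after 8 further annotated genes that also serve fatty acid oxidation (such as acadm, hadh and echs1) were set aside by symbol. The rule itself uses no measured value. Their RNA was measured by RNA-seq in ventricular cardiomyocytes that had been sorted by fluorescence from adult zebrafish (Danio rerio), in 4 libraries from 2 groups of 2. The tp1:EGFP+/myl7:DsRed2-NLS+ cells (tp1:EGFP+ from here on; 2000 cells per the series' design text) carry green fluorescence from tp1, an element that responds to Notch signalling, and nuclear red fluorescence from myl7, a cardiomyocyte promoter. The myl7:EGFP+ cells (7000 cells) carry green fluorescence from the myl7 promoter alone and stand for cardiomyocytes at large. They were not selected against tp1 activity, so the group can include such cells, and the labels give neither the number of fish behind a library nor any injury. Nothing in the labels says that replicates came from separate sorts or fish, so p-values measure only the spread between these libraries.

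Leucine, isoleucine and valine are amino acids that animals cannot make and that muscle, the heart included, oxidises in its mitochondria. A transaminase removes the amino group, the branched-chain ketoacid dehydrogenase complex (BCKDH) then commits the carbon skeleton to breakdown, and an acyl-CoA dehydrogenase particular to each skeleton opens separate arms. The leucine arm ends in acetyl-CoA and the ketone body acetoacetate, the valine arm in propionyl-CoA, and the isoleucine arm in both acetyl-CoA and propionyl-CoA, which is carboxylated and rearranged to succinyl-CoA for the tricarboxylic acid cycle.

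Most steps of the pathway did not pass the test between the groups, and the genes that did were all lower in tp1:EGFP+ cells. Of the 40 members, 36 averaged 10 or more across all 4 libraries and were tested with limma on log2(value + 1), where the values are normalized read counts. At a Benjamini-Hochberg adjusted p of 0.05 over all tested genes, 5 members fell, 0 rose and 31 were not called (without adjustment, 9 were lower and 0 higher at 0.05). The share that fell, 13.9%, lies near that of all 9921 tested genes, of which 18.0% fell, whereas 16.1% of all tested genes rose. The 5 that fell were aacs, aldh3a1, aldh3a2a, ehhadh and si:ch211-198n5.11. Of these, aacs, aldh3a1 and si:ch211-198n5.11 averaged under 10 in tp1:EGFP+ and passed the filter through their myl7:EGFP+ values. With a mean of at least 50 required they are left out, and aldh3a2a and ehhadh were called. Of these, ehhadh, with a mean of 12.5 in tp1:EGFP+ and 91.0 in myl7:EGFP+, passed that filter through its myl7:EGFP+ values. The transaminase bcat2, all BCKDH subunits and both subunits of each of the biotin-dependent carboxylases of the pathway were among the 31. The median log2 difference of the tested members, tp1:EGFP+ minus myl7:EGFP+, was -0.25, beside 0.01 for all tested genes. Both tp1:EGFP+ libraries lay below both myl7:EGFP+ libraries for 15 of the 36 members (41.7%, against 34.8% of all tested genes) and above them for 3 (8.33%, against 34.1%), and the groups overlapped for 18. In bulk RNA, fewer cells that express a gene and less of its RNA per cell cannot be told apart.

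The members together made up 0.805% and 0.743% of all values in the tp1:EGFP+ replicates 1 and 2, and 0.897% and 0.867% in the myl7:EGFP+ replicates. The 4 libraries' values summed to between 1552636 and 2130733. In the replicate 2 libraries, 98.8% (tp1:EGFP+) and 100% (myl7:EGFP+) of the values under 100 were, after rounding to whole numbers, multiples of 2.98 and 3.109, the value of 1 read, which puts these libraries at about 685085 and 685344 reads. A value of 0 there allows up to 3 reads, a value of 8.94 in tp1:EGFP+ and 9.33 in myl7:EGFP+, for counting error only. The value of 1 read was not recovered for the replicate 1 libraries, so their depth is unknown here.

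**Figure D1:**
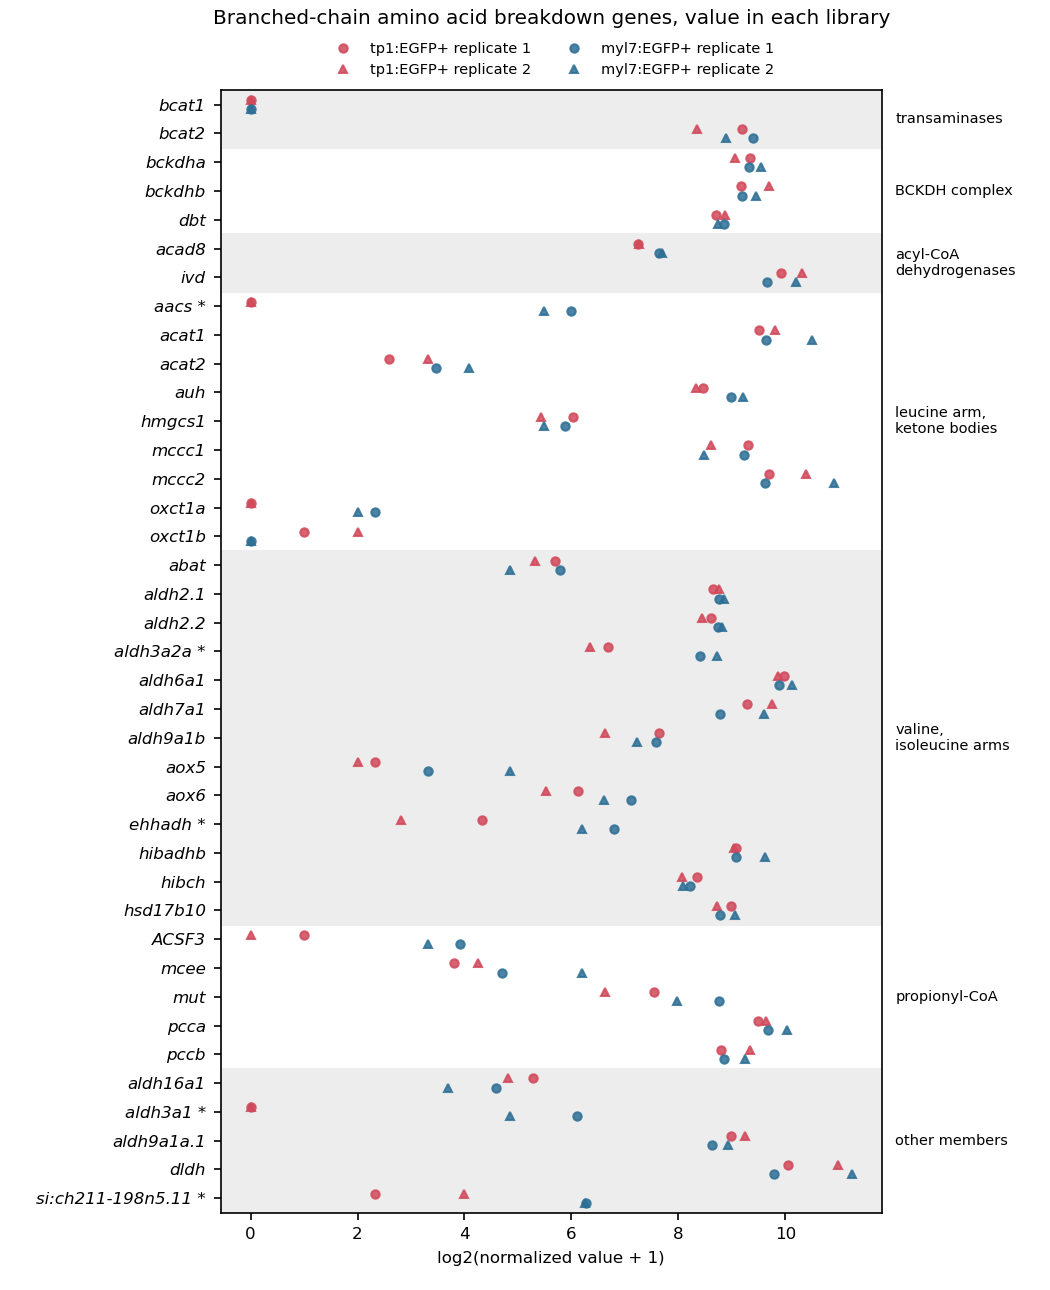
Normalized value of each member named in the text in each library, on a log2(value + 1) axis, with tp1:EGFP+ libraries in red above myl7:EGFP+ libraries in blue, circles for replicate 1 and triangles for replicate 2; members are grouped by their step of the pathway and an asterisk marks the 5 that fell. The groups overlap for many abundant members, some with replicates far apart, such as dldh and mccc2, while aacs and aldh3a1 are listed at 0 in the tp1:EGFP+ replicates.

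The fall that rests on the most reads was that of aldh3a2a (ENSDARG00000028259, chromosome 15, 20830146 to 20839910, GRCz11 per the submitters' processing notes). It encodes a fatty aldehyde dehydrogenase that KEGG also counts among the enzymes of the valine arm. Its values were 102 and 80 in tp1:EGFP+ replicates 1 and 2, against 336 and 423 in the myl7:EGFP+ replicates. The mean was 91.0 ± 15.6 in tp1:EGFP+ cells and 379.5 ± 61.5 in myl7:EGFP+ cells (SD, n = 2 each), a log2 difference of -2.05 ± 0.27 (SE, limma adjusted p = 0.00620). In replicate 2 this was about 27 reads in tp1:EGFP+ against 136 in myl7:EGFP+. The difference was -1.71 within replicate 1 and -2.39 within replicate 2.

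Its paralog aldh3a1 (ENSDARG00000074791) lies 21021 bases away on the other strand of chromosome 15, at 20799943 to 20809124. Both tp1:EGFP+ replicates were listed at 0, and the myl7:EGFP+ replicates had 68 and 28, of which 28 rests on about 9 reads (limma adjusted p = 0.00324). The groups do not overlap, and no fold change is given against a group at 0. How the authors' counting treated reads that match both paralogs is not given in the sources used here. A further paralog, aldh3a2b, which the annotation leaves out, had 0 and 0 in tp1:EGFP+ against 26 and 9 in myl7:EGFP+ and was under the filter.

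The gene aacs (ENSDARG00000012468, chromosome 5, 18827314 to 18897482) encodes acetoacetyl-CoA synthetase, a cytosolic enzyme that turns acetoacetate back into a thioester for lipid synthesis. Its listed values were 0 and 0 in tp1:EGFP+, against 63 and 44 in myl7:EGFP+, where replicate 2 rests on about 14 reads (limma adjusted p = 0.00213). Of the 9921 tested genes, 344 (3.47%) had a listed value of 0 in each tp1:EGFP+ replicate, and aacs and aldh3a1 are the 2 members among them. Genes above 0 numbered 12558 and 11516 in the tp1:EGFP+ replicates, against 14281 and 12417 in the myl7:EGFP+ replicates. The part of cell number in these values was not tested.

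The peroxisomal bifunctional enzyme, encoded by ehhadh (ENSDARG00000070029, chromosome 9, 12428226 to 12443726), hydrates and oxidises enoyl-CoAs. Its values were 19 and 6 in tp1:EGFP+ against 110 and 72 in myl7:EGFP+, so that every tp1:EGFP+ value lay well below. The log2 difference was -2.93 ± 0.65 (SE, limma adjusted p = 0.0262), with about 2 reads in tp1:EGFP+ replicate 2 and 23 in myl7:EGFP+ replicate 2. The fifth gene, si:ch211-198n5.11 (ENSDARG00000054400, chromosome 8, 16676894 to 16688511), has no gene name in the tables used here, and the deposited table gives it the term ligase activity. It had 4 and 15 in tp1:EGFP+ against 76 and 75 in myl7:EGFP+, a log2 difference of -3.10 ± 0.68 (SE, limma adjusted p = 0.0253), and the tp1:EGFP+ libraries differed from each other by 1.68 on the log2 scale. It overlaps rpe65b on the other strand by 142 bases, which was at 0 in all 4 libraries.

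Calls fell away for members and for all genes alike when a library was left out, and none of the 5 held in every such fit. Which calls held is not read as a result. With 1 myl7:EGFP+ library, the spread comes from the tp1:EGFP+ replicates alone, and both are at 0 for aacs and aldh3a1. In each of these fits 1 group has a lone library, assumed to vary like the other group. For all 5, both tp1:EGFP+ values lay below both myl7:EGFP+ values, so the log2 difference could only stay negative. That of aldh3a2a lay between -2.22 and -1.88, that of ehhadh between -3.68 and -2.17 and that of si:ch211-198n5.11 between -3.94 and -2.26.

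**Figure D2:**
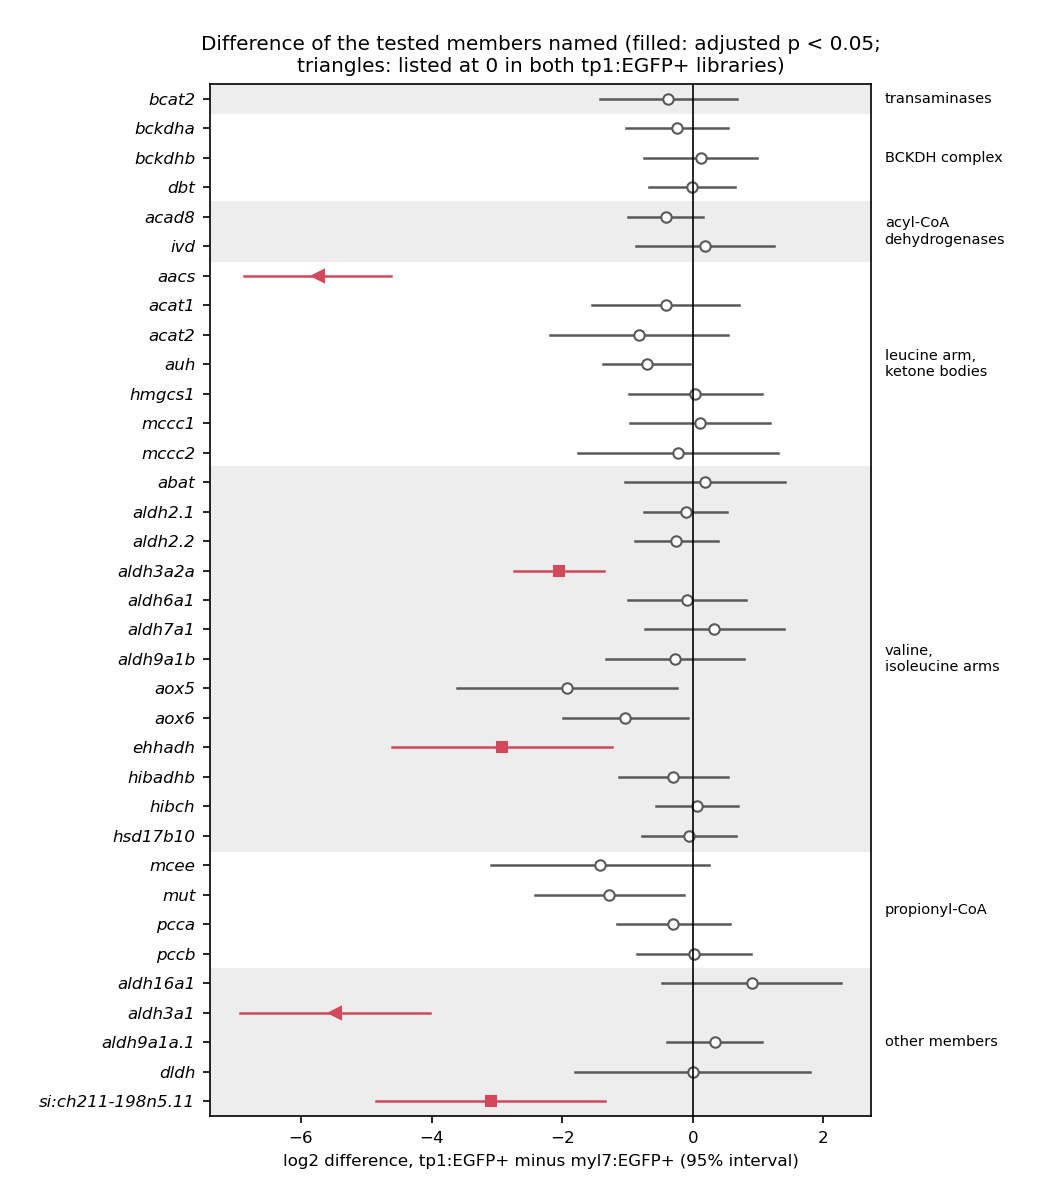
Log2 difference, tp1:EGFP+ minus myl7:EGFP+, of each tested member named in the text with its 95% interval from limma, grouped by step of the pathway; filled red symbols are the 5 members past an adjusted p of 0.05, and triangles mark aacs and aldh3a1, with no value above 0 in tp1:EGFP+, whose plotted difference depends on the pseudocount of 1. The intervals of the other members mostly span 0, from narrow ones such as that of hibch to wide ones such as that of dldh.

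At the entry to the pathway, the mitochondrial transaminase gene bcat2 had values of 585 and 325 in tp1:EGFP+ and 676 and 473 in myl7:EGFP+. The groups overlap, and the log2 difference of -0.37 had a 95% interval of -1.42 to 0.67. The cytosolic transaminase gene bcat1 was listed at 0 in all 4 libraries.

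None of the subunits of BCKDH was called. The E1 alpha subunit gene bckdha had 647 and 530 in tp1:EGFP+ and 639 and 749 in myl7:EGFP+, with a log2 difference of -0.24 (95% interval -1.02 to 0.54). The E1 beta subunit gene bckdhb had 577 and 826 against 579 and 696 (0.12, interval -0.75 to 0.99). For dbt, which encodes the E2 core that carries the lipoyl arm, the values were 415 and 468 in tp1:EGFP+ and 462 and 426 in myl7:EGFP+, and the log2 difference was -0.01 (interval -0.67 to 0.65). The groups overlapped for all of these, and the intervals of bckdhb and dbt leave out a change of 2-fold (1 on the log2 scale) either way. The gene dldh encodes the E3 subunit, dihydrolipoyl dehydrogenase, which BCKDH shares with pyruvate and 2-oxoglutarate dehydrogenase. It had 1058 and 2035 in tp1:EGFP+ and 884 and 2425 in myl7:EGFP+. Its interval, -1.80 to 1.80, was the widest of these subunits. Its replicates differed by 0.94 in tp1:EGFP+ and 1.45 in myl7:EGFP+ (log2, replicate 2 minus replicate 1).

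Among the acyl-CoA dehydrogenases that follow, ivd, for isovaleryl-CoA from leucine, had 961 and 1276 in tp1:EGFP+ against 801 and 1175 in myl7:EGFP+ (log2 0.19, interval -0.87 to 1.25). The gene acad8, for isobutyryl-CoA from valine, had 150 and 152 in tp1:EGFP+ and 199 and 205 in myl7:EGFP+. Its groups do not overlap and its log2 difference of -0.42 lay between -0.99 and 0.16 (limma adjusted p = 0.210). The isoleucine counterpart, acadsb, lacks the KEGG annotation and is not a member. It had 493 and 471 against 625 and 687 (log2 -0.44, interval -1.14 to 0.25).

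In the leucine arm, 7 of the 8 tested genes were not called and aacs fell, where 18.0% of all tested genes fell. Both subunits of methylcrotonyl-CoA carboxylase overlapped between groups. Its biotin-carrying subunit gene mccc1 had 633 and 390 in tp1:EGFP+ against 599 and 354 in myl7:EGFP+, and mccc2 had 831 and 1344 against 790 and 1928. The next enzyme, the hydratase encoded by auh, had 350 and 319 in tp1:EGFP+ and 504 and 591 in myl7:EGFP+, so the groups were apart. Its log2 difference was -0.71 ± 0.26 (SE), with an unadjusted p of 0.0412 and a limma adjusted p of 0.0941. Among genes of acetoacetyl-CoA, mitochondrial thiolase acat1 had 723 and 894 in tp1:EGFP+ against 799 and 1436 in myl7:EGFP+, and cytosolic acat2 had 5 and 9 against 10 and 16. The HMG-CoA synthase gene hmgcs1, at 64 and 42 against 58 and 44, overlapped. The ketone-body transferase genes were under the filter, oxct1a at 0 and 0 in tp1:EGFP+ against 4 and 3 in myl7:EGFP+, and oxct1b at 1 and 3 against 0 and 0.

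In the valine and isoleucine arms, aldh3a2a and ehhadh fell and the other 11 of the 13 tested genes assigned there by symbol were not called. Of all tested genes, 18.0% fell. The gene hibch, for the hydrolase that frees 3-hydroxyisobutyrate, had 325 and 268 in tp1:EGFP+ and 295 and 270 in myl7:EGFP+, with a log2 difference of 0.06 and an interval of -0.57 to 0.70. The methylmalonate semialdehyde dehydrogenase gene aldh6a1 had 1006 and 933 against 940 and 1119 (log2 -0.08, interval -0.99 to 0.82), and hsd17b10, which acts on the isoleucine intermediate, had 506 and 423 against 435 and 532. All 3 overlapped between the groups. The values of hibadhb, for 3-hydroxyisobutyrate dehydrogenase, were 536 and 522 in tp1:EGFP+ and 536 and 787 in myl7:EGFP+. This gene overlaps tax1bp1b on the other strand by 18502 bases, and since the handling of strand is not given in the sources used here their reads cannot be told apart. Its paralog hibadha, not annotated to the pathway, had 71 and 57 against 102 and 81.

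The aldehyde oxidase genes aox5 and aox6, tail to tail on chromosome 22 with a gap of 145 bases, were apart between groups but not called. The values of aox6 were 69 and 45 in tp1:EGFP+ against 138 and 96 in myl7:EGFP+, a log2 difference of -1.03 ± 0.37 (SE, limma adjusted p = 0.0899). Those of aox5 were 4 and 3 against 9 and 28 (log2 -1.93 ± 0.65 SE, limma adjusted p = 0.0795), with about 1 read in tp1:EGFP+ replicate 2. The tandem genes aldh2.1 and aldh2.2, for mitochondrial aldehyde dehydrogenase, lie 1678 bases apart on chromosome 5 and may share reads. They had 398 and 432, and 391 and 346, in tp1:EGFP+, against 434 and 460, and 425 and 451, in myl7:EGFP+. Both were apart, with log2 differences of only -0.11 and -0.25. Of the remaining aldehyde dehydrogenase members, aldh9a1a.1 (502 and 608 against 396 and 485) and aldh16a1 (38 and 27 against 23 and 12) had both tp1:EGFP+ values above and were not called, while aldh7a1 and aldh9a1b overlapped. In all, 2 of the 9 members with aldh symbols fell, beside 18.0% of all tested genes. The 4-aminobutyrate transaminase gene abat had 51 and 39 in tp1:EGFP+ and 54 and 28 in myl7:EGFP+.

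Where the arms meet at propionyl-CoA, 0 of the 4 tested genes were called, beside 18.0% of all tested genes called lower and 16.1% called higher. The carboxylase subunit genes pcca and pccb had 720 and 793, and 442 and 650, in tp1:EGFP+, against 821 and 1051, and 460 and 603, in myl7:EGFP+. Their log2 differences were -0.30 (interval -1.16 to 0.57) and 0.03 (interval -0.85 to 0.90). At the next steps the tp1:EGFP+ values were lower, though not called. The epimerase gene mcee had 13 and 18 in tp1:EGFP+ against 25 and 72 in myl7:EGFP+, and the cobalamin-dependent mutase gene mut, which makes succinyl-CoA, had 185 and 98 against 431 and 249. Both were apart. For mut the mean was 142 ± 61.5 in tp1:EGFP+ and 340.0 ± 129 in myl7:EGFP+ (SD, n = 2 each), a log2 difference of -1.28 ± 0.44 (SE, unadjusted p = 0.0356, limma adjusted p = 0.0850). It was -1.22 within replicate 1 and -1.34 within replicate 2. The gene ACSF3, for malonyl-CoA synthetase in mammals, was under the filter at 1 and 0 in tp1:EGFP+ against 14 and 9 in myl7:EGFP+.

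Of the 13 tested members with a mean under 200 over the 4 libraries, 4 fell (30.8%), beside 20.6% of all tested genes under 200. Of the 23 at or over 200, only aldh3a2a fell (4.35%), beside 8.69% of all tested genes, so the tilt towards less abundant genes is seen over all genes too. These means are not corrected for gene length. Among the 31 members that were not called, the SE of the log2 difference ran between 0.22 and 0.70, and for 9 of them the 95% interval lay within 1 of 0, so a change of 2-fold lay outside it. For the other 22 the interval reached past 1 or -1.

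Replicate 2 was above replicate 1 in both groups for 13 of the 36 members and below it in both for 10, together 63.9%, beside 64.6% of all tested genes. The gene mccc2 differed by 0.69 in tp1:EGFP+ and 1.29 in myl7:EGFP+ (log2, replicate 2 minus replicate 1), and dldh by 0.94 and 1.45. In the other direction, mccc1 differed by -0.70 and -0.76, mut by -0.91 and -0.79 and bcat2 by -0.85 and -0.51. The subunit genes mccc1 and mccc2 of 1 enzyme therefore moved in opposite directions between the libraries of each group. In 23 of the 36 members the tp1:EGFP+ minus myl7:EGFP+ difference had the same sign within both replicate numbers (63.9%, beside 84.8% of all tested genes). The labels name 2 library kits without saying which served which library, and the part of the kit in these differences was not tested.

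**Figure D3:**
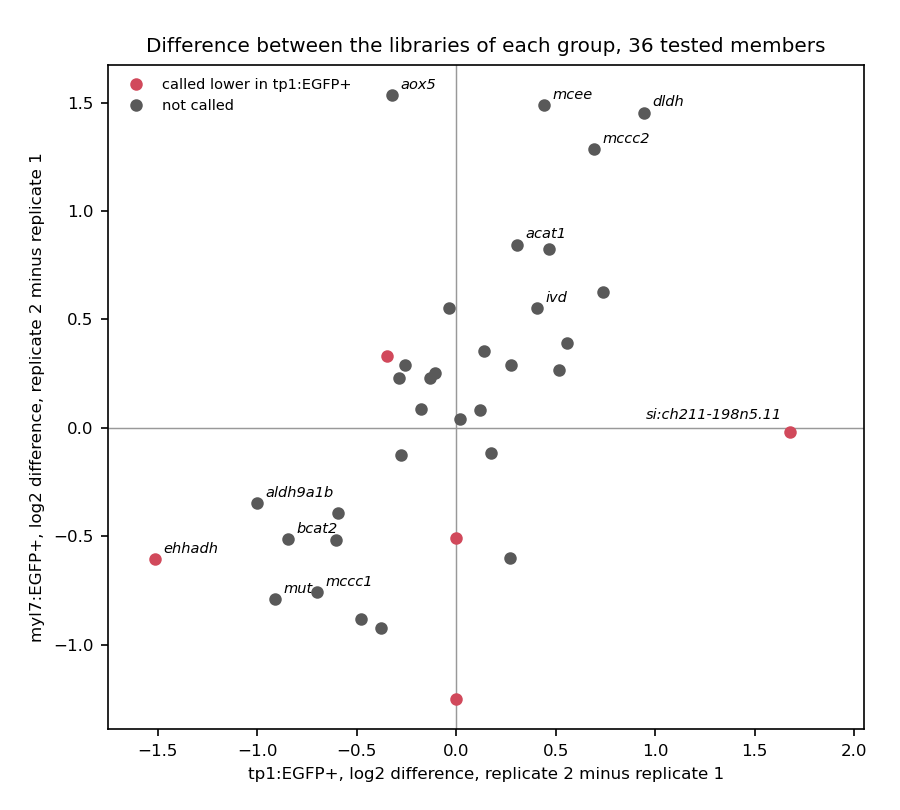
Log2 difference between replicate 2 and replicate 1 of each tested member in tp1:EGFP+ (horizontal axis) and in myl7:EGFP+ (vertical axis), 1 point per gene, with the 5 members that fell in red. Points in the upper right (13) and lower left (10) are genes whose replicates differed in the same direction in both groups, as for dldh and mccc2 or for mut and mccc1.

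Genes that bring branched-chain amino acids in and control their breakdown were taken from a list of transporters and regulators. Of 10 tested, 3 fell and 0 rose, beside 18.0% and 16.1% of all tested genes. The amino acid transporter gene slc43a1b had 50 and 51 in tp1:EGFP+ against 349 and 280 in myl7:EGFP+ (log2 -2.61 ± 0.25 SE, limma adjusted p = 0.00282), and its relative slc43a2a had 1 and 0 against 29 and 25. The third was slc3a2a, a partner of large neutral amino acid transporters, listed at 0 in tp1:EGFP+ and at 35 and 12 in myl7:EGFP+. Both slc3a2a and slc43a2a averaged under 10 in tp1:EGFP+ and passed the filter through their myl7:EGFP+ values. By contrast, slc43a1a, at 1121 and 1791 against 1223 and 3756, overlapped, and slc3a2b, at 197 and 173 against 300 and 277, was apart and not called. The mitochondrial branched-chain amino acid carrier genes slc25a44a and slc25a44b had 14 and 6, and 36 and 30, in tp1:EGFP+, against 30 and 25, and 72 and 65, in myl7:EGFP+, and neither passed. The list's median log2 difference was -1.25, or -1.08 with slc3a2a set at the value of 3 reads.

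The regulators of BCKDH itself were not called. The inhibitory kinase gene bckdk had 611 and 376 in tp1:EGFP+ and 652 and 678 in myl7:EGFP+ (log2 -0.47, interval -1.37 to 0.43), and the activating phosphatase gene ppm1k had 267 and 244 against 206 and 211 (log2 0.29, interval -0.29 to 0.87). Both pairs were apart. The transcription factor gene klf15, known in mice as a regulator of cardiac branched-chain amino acid breakdown, had 110 and 54 in tp1:EGFP+ against 414 and 190 in myl7:EGFP+. Its log2 difference of -1.85 ± 0.53 (SE) just missed the threshold (limma adjusted p = 0.0530).

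Few genes of the pathway's metabolic neighbours were called, beside 18.0% of all tested genes called lower and 16.1% called higher. Of 9 tested enzymes shared with fatty acid oxidation, the 8 set aside and hadhb, acads fell and 0 rose, with a median log2 difference of -0.16. Of the 6 tested subunits of the related pyruvate and 2-oxoglutarate dehydrogenases 0 were called, with a median of -0.19. Of the 14 tested tricarboxylic acid cycle genes, 0 rose and suclg2 fell, with a median of -0.02. This gene encodes a subunit of the enzyme that uses succinyl-CoA, the pathway's end product, and had 205 and 212 in tp1:EGFP+ against 398 and 485 in myl7:EGFP+ (log2 -1.07 ± 0.24 SE, limma adjusted p = 0.0280). The related subunit genes were not called, suclg1 at 669 and 903 against 580 and 1122 and sucla2 at 831 and 754 against 942 and 1287.

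**Figure D4:**
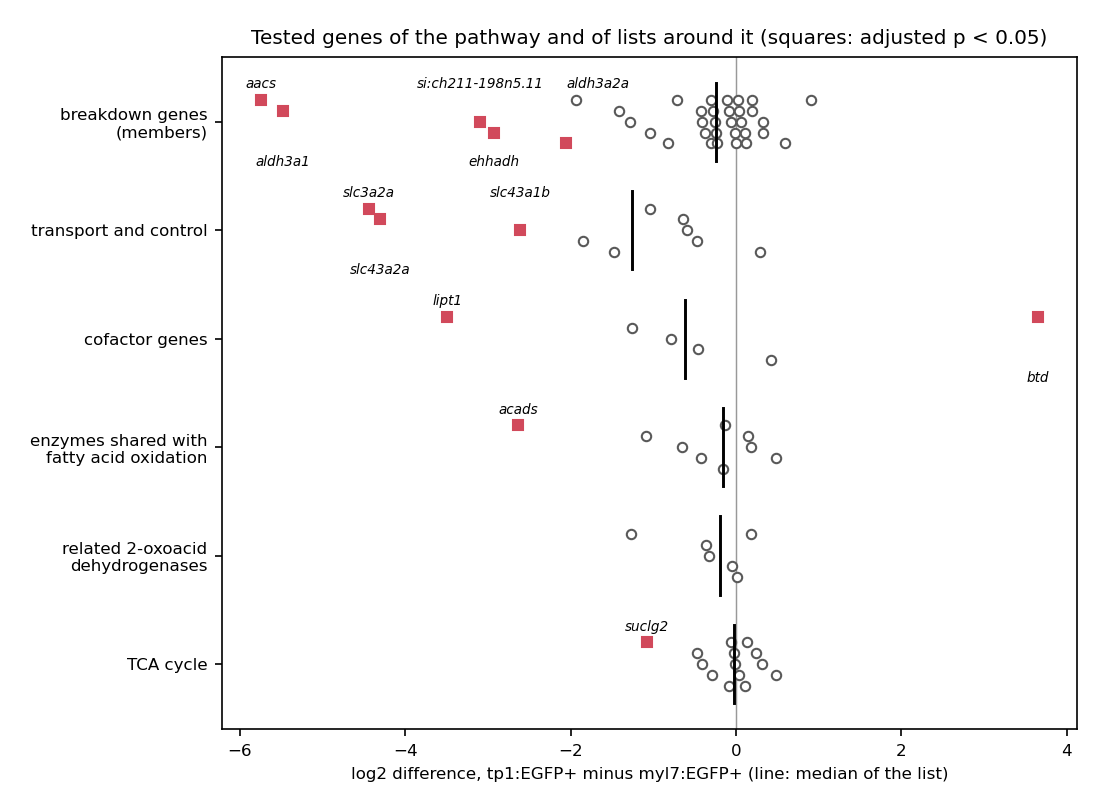
Log2 difference, tp1:EGFP+ minus myl7:EGFP+, of the tested breakdown genes and of 5 lists around them, 1 symbol per gene, with red squares for genes past an adjusted p of 0.05 and a black line at each list's median. The median of the transport and control list, -1.25, is the lowest, and that of the tricarboxylic acid cycle list, -0.02, lies nearest 0.

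Members share other KEGG terms, and the same few genes recur among them. The genes aldh3a2a, aldh3a1 and ehhadh are the 3 that fell among the 11 members also annotated to fatty acid degradation, the 11 also in lysine degradation, the 13 in tryptophan metabolism and the 12 in beta-alanine metabolism. Of all tested genes 18.0% fell, and differences between terms were not tested. Of the 14 members also in propanoate metabolism 1 fell, and of the 4 tested members in ketone body metabolism 0 did.

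Markers of other cell types also differed between the groups, where 18.0% of all tested genes fell and 16.1% rose. Of the 10 tested endothelial and endocardial markers, 6 were lower and 3 higher in tp1:EGFP+. The summed list was at 203 and 171 in tp1:EGFP+ against 736 and 461 in myl7:EGFP+, a sum that hides this split. Among the lower genes, fli1a, erg and tie1 had no value above 0 in tp1:EGFP+. The higher genes were sele (63 and 54 in tp1:EGFP+ against 2 and 0 in myl7:EGFP+), cldn5b (29 and 27) and pecam1 (19 and 30). Neither cldn5b nor pecam1 had a value above 0 in myl7:EGFP+. Mural markers were higher for 7 of 8 tested and lower for 0 (sums of 2840 and 4898 against 788 and 1314), with myh11a and pdgfrb listed at 0 in myl7:EGFP+. Erythroid markers were higher for 5 of 6 (156 and 340 against 27 and 22), and epicardial and fibroblast markers for 4 of 7 (278 and 267 against 146 and 145). The 5 erythroid markers that rose were all globin genes. The other, slc4a1a, lay the other way, at 11 and 18 in tp1:EGFP+ against 25 and 22 in myl7:EGFP+, and was not called. Of the leukocyte markers only 2 were tested, cd74b and cxcr4b, and both were lower (list sums of 5 and 6 against 54 and 77). The leukocyte markers ptprc, coro1a and mpeg1.1 were at 0 in all 4 libraries. Every called erythroid, leukocyte, epicardial and fibroblast marker averaged under 10 in the group where it was lower. So did each endothelial and mural marker named above. These genes passed the filter through the other group, which favours a call. Cardiomyocyte markers, myl7 and tnnt2a among them, were present in every library, and 0 of 10 were called (28374 and 63165 against 25566 and 70778). The values of myl7 were 765 and 3916 in tp1:EGFP+ against 565 and 4206 in myl7:EGFP+. Its 95% interval was -3.13 to 3.47 and that of tnnt2a -3.66 to 3.26, so the lack of calls does not show equal levels. The part of other cells in the values of the breakdown genes was not tested.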

How the data were processed

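RNA-seq of sorted adult zebrafish cardiomyocytes was analysed from 1 table with 4 libraries. The submitters' processing notes name DESeq2 1.26.0, featureCounts, STAR 2.6.1d, Subread 1.6.5 and Trimmomatic 0.39, and the builds GRCz11 and danRer11. What each did, and how strand and multiply mapped reads were treated, is not stated in the sources used here. Each deposited value is entered here as a score, a read count that the authors had normalized and rounded. These values are not raw counts, so no count model was fitted. Libraries were grouped by their titles.

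Values were tested with limma 3.58.1 (R 4.3.3, trend option) on log2(value + 1) for the genes that averaged 10 or more, without a replicate term, with Benjamini-Hochberg adjustment over all tested genes. Differences of low genes on this scale depend on the pseudocount, and for a group at 0 they can understate or overstate the change. The fit was also run on simulated libraries with independent noise. The replicate deviations of the real libraries are correlated, so that run does not give the error rate here. Members and lists were chosen with earlier results of these data known. Every member is named or counted (1 is in the counts and not reported by name here), and other genes come from lists by role. The alternatives were other pseudocounts, filters and scalings, the replicate number as a block, and each library left out. Tables and plots used Python 3.11.15, pandas 2.3.3 and matplotlib 3.10.9. A promoter motif search was not run, since no sequences were used here.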

Additional observations from a re-analysis of the deposited data

How the results depend on the processing

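Of 5 members called lower, the count was also 5 with a pseudocount of 0.5 or 10, with trimmed-mean and common-total scaling, 6 with quantile scaling (aox6 added) and 7 with no filter (oxct1a and ACSF3 added). It was 2 with a mean of at least 50, which leaves out aacs, aldh3a1 and si:ch211-198n5.11, and 0 to 2 with 1 library left out. No member was called higher in these fits, beside 10.9% (no filter) to 18.3% (quantile scaling) of all tested genes. At a mean of at least 50, ehhadh stays in through its myl7:EGFP+ values. With the replicate number as a block, 10 members were called lower and 1 higher, beside 29.0% and 28.7% of all tested genes. The lower calls added were mut, auh, aox5, aox6 and mcee. The libraries share only a number, so this pairing is not part of the design, and the correlation of the replicate deviations across all tested genes was 0.44.

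Members whose sign turned were called in no fit. Quantile scaling gave log2 differences of -0.011 for hibch, -0.0091 for mccc1 and -0.053 for pccb, and a common total gave -0.015 for dldh. With 1 library left out the ranges were -0.27 to 0.65 for abat, -0.84 to 0.0089 for acat1, -0.21 to 0.044 for aldh6a1, -0.084 to 0.74 for aldh7a1, -0.77 to 0.23 for aldh9a1b, -0.80 to 0.049 for bcat2, -0.14 to 0.38 for bckdhb, -0.096 to 0.077 for dbt, -0.72 to 0.73 for dldh, -0.074 to 0.20 for hibch, -0.26 to 0.34 for hmgcs1, -0.20 to 0.089 for hsd17b10, -0.085 to 0.47 for ivd, -0.27 to 0.49 for mccc1, -0.87 to 0.42 for mccc2 and -0.25 to 0.30 for pccb. The cause was not tested. Depth limits values under about 9 in the replicate 2 libraries, and 2 libraries per group limit every test.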

Other observations

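Genes of the cofactors that these enzymes need went both ways. Of 6 tested genes of biotin, cobalamin and lipoate handling, 1 rose, 1 fell and 4 were not called. Over all tested genes, 16.1% rose and 18.0% fell. The gene btd, for the enzyme that frees biotin for reuse, rose, at 24 and 18 in tp1:EGFP+ against 2 and 0 in myl7:EGFP+ (log2 3.65 ± 0.65 SE, limma adjusted p = 0.0142). The lipoyltransferase gene lipt1 fell, at 3 and 0 in tp1:EGFP+ against 21 and 22 in myl7:EGFP+ (log2 -3.49 ± 0.75 SE, limma adjusted p = 0.0241). Both log2 differences rest on a few reads in 1 group and depend on the pseudocount of 1. Both genes averaged under 10 in that group and passed the filter through the other, which favours a call. Of the genes that load or handle the cobalamin of the mutase, mmaa had 39 and 24 against 61 and 47, mmab had 9 and 9 against 21 and 25, and mmadhc had 440 and 420 against 297 and 342, and none of these 3 was called.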
